A study of Mus musculus with 12 samples.

Results

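In mouse brown adipose tissue, 1670 Rev-Erbα binding sites were listed both at 4 °C and at 29 °C. Of these, 285 (17.1%) had less than 1.3 times the 29 °C read density at 4 °C. At 17 of the 285 the 4 °C density was still higher by more than counting error. The 285 were chosen by overlap and ratio: a 200 bp window of the 4 °C peak list was shared when it overlapped a window of the 29 °C list by at least 1 bp, and it belonged to the 285 when the FPKM of the HA-RevErba 4 °C pool over that of the HA-RevErba 29 °C pool was below 1.3. The other 1385 shared sites had a ratio above it. The whole 4 °C list held 11227 windows, of which 360 (3.21%) had a ratio below 1.3, and the 9557 windows listed at 4 °C only held 75 (0.785%). Since the ratio chose the sites, the HA-RevErba values below are a description with no test.

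The study mapped where an HA-tagged Rev-Erbα binds the genome of brown fat, by sequencing the DNA recovered in chromatin immunoprecipitation (ChIP-seq), and asked how this differs between chronic cold and warmth. C57BL/6 mice were housed for 1 week at 4 °C or at thermoneutrality, 29 °C, and all chromatin was pulled down with HA magnetic beads. The 4 groups were HA-RevErba mice at 4 °C (4 libraries), HA-RevErba mice at 29 °C (4 libraries), WT mice at 4 °C (2 libraries) and WT mice at 29 °C (2 libraries). WT mice lack the tag, so their pull-down gives the background of the beads. The sources used here do not say how the tag was introduced or give the sex and age of the mice. The peak lists hold 1 pooled value per group and window, so no spread between animals stands behind a ratio, and no comparison between temperatures could be tested.

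Rev-Erbα, the product of Nr1d1, is a nuclear receptor of the circadian clock that binds the sequence AGGTCA in an A/T-rich context, alone or as a close pair, and represses transcription through the corepressor NCoR and the histone deacetylase HDAC3. The activator RORα binds the same element. In brown fat Rev-Erbα is known as a repressor of the thermogenic gene Ucp1, and its own level falls in acute cold. Brown fat burns lipid and glucose to make heat and is driven by noradrenaline through β-adrenergic receptors.

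The libraries held 28.7 to 37.3 M (mega) aligned reads in HA-RevErba mice at 4 °C, 27.0 to 36.9 M at 29 °C, 29.2 to 32.6 M in WT mice at 4 °C and 27.4 to 36.1 M at 29 °C. The mean was 32.0 M ± 3.8 at 4 °C and 30.9 M ± 4.68 at 29 °C in HA-RevErba mice (SD, n = 4 each), a difference of 1.06 M with p = 0.714 (two-sided exact permutation test over 70 splits, smallest possible p = 0.0286). The sizes of the pools behind the peak values were inferred from the FPKM. They were 63.8 M reads (HA-RevErba 4 °C), 60.8 M (HA-RevErba 29 °C), 27.1 M (WT 4 °C) and 25.1 M (WT 29 °C). Each pool was smaller than the aligned reads of its libraries together, and each WT pool was smaller than any 1 of its libraries. What accounts for the gap is not stated in the sources, so the depth test does not cover the reads behind the ratios. The median window of the 285 sites rested on 87 reads at 4 °C and 92 at 29 °C in the HA-RevErba pools, and on 5 and 4 in the WT pools. Ratios are given with their 95% interval in parentheses, which covers counting error only.

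The sequence shown first is that of the leptin promoter, because a site in front of Lep was the only member of the 285 whose centre fell within 250 bp before to 50 bp after a transcription start site (TSS), the stretch for which promoter sequence was at hand. Lep encodes leptin, the satiety hormone secreted by fat cells. The window (mm9 chr6:29009943-29010143, classed as promoter) was centred 178 bp before the start of Lep. It had 4.56 FPKM in the HA-RevErba 4 °C pool and 5.36 FPKM in the HA-RevErba 29 °C pool, against 1.12 FPKM in the WT 4 °C pool and 0.41 FPKM in the WT 29 °C pool. The 4 °C values lie close to the limits of the list, 3 FPKM above WT and about 4 times WT. In the overlapping window of the 29 °C list the 4 °C values were 4.24 FPKM (HA-RevErba) and 1.3 FPKM (WT). The ratio was 0.851 (0.587 to 1.23), so a difference between temperatures was not detectable at this depth. Below are the 250 bases before the Lep start on the plus strand, from RefSeq (GRCm38.p6, chr6:29059971-29060220), with 2 motifs in capitals.
Lep: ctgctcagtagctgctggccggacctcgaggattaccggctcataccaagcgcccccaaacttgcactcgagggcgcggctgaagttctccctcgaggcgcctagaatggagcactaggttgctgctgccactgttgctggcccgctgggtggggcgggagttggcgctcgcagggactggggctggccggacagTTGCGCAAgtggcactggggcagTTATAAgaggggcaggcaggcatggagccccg
The capitals mark TTGCGCAA, a C/EBP consensus, at -55 to -48, and TATAA on either strand, overlapping at -32 to -27, where a TATA box is usual. TTGCGCAA occurs in 0.183% of 32851 RefSeq promoters and TATAA in 24.9% of them (either strand, 250 bases before to 50 after the start). The listed window, if the start in the authors' annotation is that of RefSeq, covers the first 173 of these bases (-250 to -78) and lies before both motifs. The 250 bases are 65.6% G or C and hold 16 CG pairs. Neither AGGTCA, the Rev-Erbα core element, nor the E-box CACGTG is in the 250 bases on either strand. AGGTCA is found in the first 173 bases of 9.82% of all RefSeq promoters.

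Among the other 1385 shared sites, 18 had their centre in the same stretch around a start, 8 of them at genes with a single promoter in the table. In 4 of these 8 the part of the window within this stretch held AGGTCA. As for Lep, the placement assumes that the start in the authors' annotation is that of RefSeq. The parts of these 4 windows that lie before the start are shown for comparison, 5′ to 3′ on the strand of the gene, with AGGTCA in capitals. That of Aifm2 (GRCm38.p6, chromosome 10, plus strand, -250 to -52) had a ratio of 2.37, and that of Fam124b (chromosome 1, minus strand, -191 to -1) a ratio of 2.71. That of Leo1 (chromosome 9, plus strand, -104 to -1) had 3.85, and that of Tmem182 (chromosome 1, plus strand, -191 to -1) had 2.18.
Aifm2: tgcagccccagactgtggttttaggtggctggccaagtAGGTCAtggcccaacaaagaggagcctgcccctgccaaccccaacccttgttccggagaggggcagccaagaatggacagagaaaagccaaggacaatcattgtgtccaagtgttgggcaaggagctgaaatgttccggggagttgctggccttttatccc
Fam124b: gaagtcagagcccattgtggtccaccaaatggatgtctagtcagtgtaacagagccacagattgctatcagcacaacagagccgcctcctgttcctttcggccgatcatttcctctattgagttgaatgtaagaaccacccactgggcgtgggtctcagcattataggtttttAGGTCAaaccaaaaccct
Leo1: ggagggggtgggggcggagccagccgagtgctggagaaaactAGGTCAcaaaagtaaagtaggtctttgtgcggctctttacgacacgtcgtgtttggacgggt
Tmem182: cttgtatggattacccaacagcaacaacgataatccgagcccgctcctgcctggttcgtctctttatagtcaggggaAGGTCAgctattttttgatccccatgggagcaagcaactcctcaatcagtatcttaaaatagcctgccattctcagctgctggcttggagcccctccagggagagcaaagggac
In 3 of the 4 the core follows a T, as in TAGGTCA, and at Tmem182 it follows an A. Of all RefSeq promoters 2.61% hold TAGGTCA and 16.3% hold AGGTCA. A match is a description of these letters and does not show which base was bound.

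The 285 sites had nearly the same read density at both temperatures as a group. Their median was 6.83 FPKM in the HA-RevErba 4 °C pool and 7.58 FPKM in the HA-RevErba 29 °C pool, against 0.930 FPKM in the WT 4 °C pool and 0.810 FPKM in the WT 29 °C pool. The other shared sites had medians of 13.3 and 5.93 FPKM in the HA-RevErba pools at 4 °C and 29 °C, and of 1.48 and 1.01 FPKM in the WT pools. So the 285 sites lay lower at 4 °C and higher at 29 °C than the other shared sites, which is what a cut on the ratio selects. Their ratio ran between 0.312 and 1.298 with a median of 1.02, and that of the other shared sites had a median of 2.04 and reached 6.71. Summed over windows, the ratio was 0.969 in the 285 sites and 2.04 in the other shared sites.

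**Figure D1:**
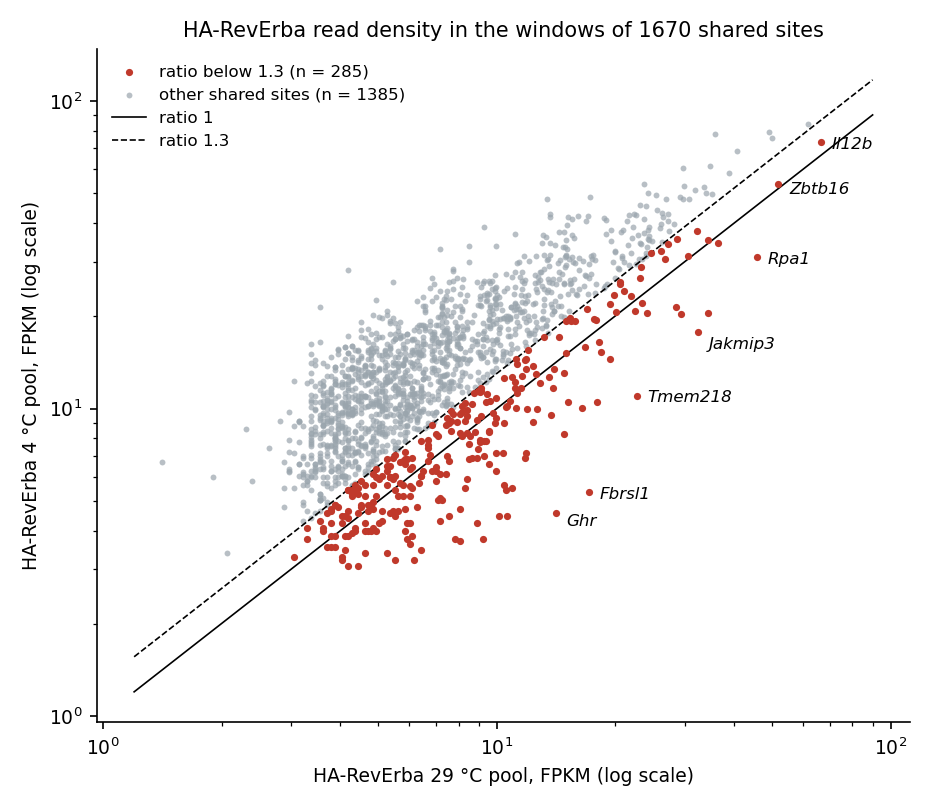
Read density (FPKM, log axes) of the HA-RevErba 4 °C pool against the HA-RevErba 29 °C pool, 1 point per shared site. The 285 sites with a ratio below 1.3 lie under the dashed line, down to Fbrsl1 with 5.34 FPKM at 4 °C and 17.1 FPKM at 29 °C, and the other 1385 sites lie above it.

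Most of the 285 ratios could not be told from 1 by counting: the interval included 1 at 222 sites, lay above 1 at 17 and lay below 1 at 46. These 46 were 2.75% of all shared sites, and they had a median of 5.46 FPKM at 4 °C and 10.1 FPKM at 29 °C in the HA-RevErba pools, and of 0.560 and 0.610 FPKM in the WT pools. The ratio was below 1 at 137 of the 285 sites (48.1%), among them 40 with 0.5 to 0.75 and 9 under 0.5. Just inside the limit lay the sites of Prr5 (1.298), Twsg1 (1.297) and Gm15511 (1.297), and just outside it those of Gm12669 (1.301), Atp8b2 (1.302) and Zfp831 (1.302), so the limit cuts through a continuous range.

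The share of sites below 1.3 differed along the strength of the 29 °C signal, which is part of the ratio itself. It was 11.7% of the 565 shared sites under 5 FPKM in the HA-RevErba 29 °C pool, 18.1% between 5 and 10 FPKM, 21.4% between 10 and 20, and 28.2% between 20 and 40 (24 of 85). By the HA-RevErba 4 °C value, the other part of the ratio, the shares ran broadly the other way: 87.5% of the 88 shared sites under 5 FPKM were below 1.3, 25.2% between 5 and 10 FPKM, 7.29% between 10 and 20, 8.78% between 20 and 40, and 4.44% of the 45 above that. Neither order is independent of the rule. Among the 100 shared sites with the highest peak score in the 29 °C list, 29 belonged to the 285, and among the 100 with the highest score in the 4 °C list 9 did. The 285 sites thus ran from weak to strong: their 10th and 90th percentiles were 4.01 and 19.6 FPKM at 4 °C and 4.20 and 19.3 FPKM at 29 °C.

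The strongest of the 285 sites lay 227 kb before Il12b, the gene of the p40 subunit of the cytokines IL-12 and IL-23, between genes (chr11:43986751-43986951). It had 73.3 FPKM in the HA-RevErba 4 °C pool and 66.5 FPKM in the HA-RevErba 29 °C pool, against 3.33 FPKM in the WT 4 °C pool and 2.40 FPKM in the WT 29 °C pool, a ratio of 1.10 (1.0 to 1.21). At 935 and 809 reads, this was also the most precisely counted of the 285 ratios. The next lay in an intron of Zbtb16, which encodes the BTB zinc finger transcription factor PLZF, 89.3 kb after its start (chr9:48554673-48554873). This window had 53.7 FPKM in the HA-RevErba 4 °C pool and 51.9 FPKM in the HA-RevErba 29 °C pool, against 3.14 FPKM in the WT 4 °C pool and 2.20 FPKM in the WT 29 °C pool, a ratio of 1.04 (0.928 to 1.16). Both sites were among the 10 strongest shared sites of either list.

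Other members of high score were close to equal or slightly higher at 4 °C. Close to equal were 2 windows in an intron of the non-coding gene Gm29811 (35.4 FPKM at 4 °C and 34.4 FPKM at 29 °C, and 31.3 and 30.5 FPKM) and a window 143 kb before 2900052N01Rik (34.6 and 36.4 FPKM, ratio 0.951, 0.832 to 1.09). Slightly higher at 4 °C, with intervals above 1, were a window in an intron of Trim2, a ubiquitin ligase gene, annotated to Gm6525 (35.6 and 28.7 FPKM, 1.24), and windows near 2410131K14Rik (37.8 and 32.2 FPKM, 1.18) and Cand1, whose product exchanges the substrate receptors of cullin ubiquitin ligases (34.4 and 27.1 FPKM, 1.27). The window in an intron of Tbc1d4, which encodes the Rab GTPase-activating protein AS160 that holds back the glucose transporter GLUT4, had 30.5 FPKM at 4 °C and 26.7 FPKM at 29 °C in the HA-RevErba pools, with a ratio of 1.14 (0.985 to 1.33). WT values at these windows did not exceed 2.40 FPKM.

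Several strong sites were lower at 4 °C. A window 59.4 kb after the start of Rpa1, the largest subunit of the single-strand DNA binding protein RPA, had 31.0 FPKM in the HA-RevErba 4 °C pool and 45.7 FPKM in the HA-RevErba 29 °C pool, against 2.22 and 1.01 FPKM in the WT pools, and its ratio was 0.677 (0.594 to 0.772). An intronic window of Jakmip3 had 17.7 and 32.4 FPKM in the HA-RevErba pools at 4 °C and 29 °C, a ratio of 0.547 (0.462 to 0.646). These are sites where the 29 °C pool was the higher by more than counting error, at 226 or more reads in each pool. The same held for an intronic window of Tcp11x2 on the X chromosome (20.3 FPKM at 4 °C and 29.3 FPKM at 29 °C, 0.694, 0.589 to 0.816). It held as well for a window in an intron of Col5a1, a fibrillar collagen gene (21.4 and 28.6 FPKM, 0.75, 0.638 to 0.882).

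**Figure D2:**
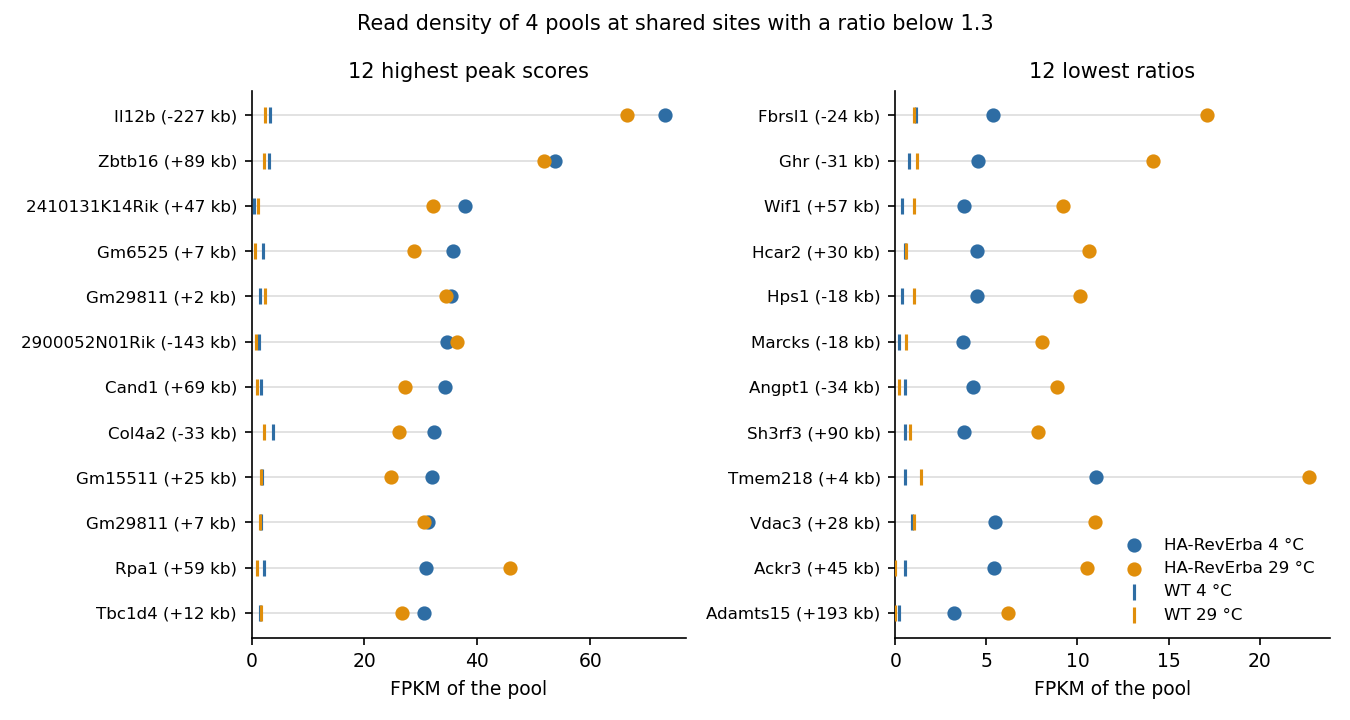
FPKM of the 4 pools at the 12 sites with the highest 4 °C peak score (left) and the 12 with the lowest ratio (right), named by the annotated gene with the distance from its start. HA-RevErba values are circles and WT values are ticks. At the top left the Il12b window has 73.3 FPKM at 4 °C and 66.5 FPKM at 29 °C, and at the top right the Fbrsl1 window has 5.34 and 17.1 FPKM.

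The lowest ratios were found at sites of middle strength. The lowest of all was 0.312 (0.233 to 0.412), 23.5 kb before Fbrsl1, with 5.34 FPKM in the HA-RevErba 4 °C pool and 17.1 FPKM in the HA-RevErba 29 °C pool, against 1.12 and 1.01 FPKM in the WT pools. The next lay 30.7 kb before Ghr, the growth hormone receptor (chr15:3563940-3564140), with 4.56 FPKM in the HA-RevErba 4 °C pool and 14.2 FPKM in the HA-RevErba 29 °C pool, against 0.75 and 1.21 FPKM in the WT pools, a ratio of 0.322 (0.235 to 0.435). In the first of these windows the WT values differed little between temperatures, and in both the HA-RevErba 29 °C value was more than 10 times the WT value. Wif1, a secreted inhibitor of Wnt proteins, had an intronic window with 3.77 and 9.22 FPKM in the HA-RevErba pools at 4 °C and 29 °C and a ratio of 0.409 (0.285 to 0.578). Hcar2, the receptor for niacin and β-hydroxybutyrate that slows lipolysis in fat cells, had a window 30.5 kb after its start (chr5:124284951-124285151) with 4.48 FPKM at 4 °C and 10.6 FPKM at 29 °C, against 0.560 and 0.610 FPKM in the WT pools. Its ratio was 0.422 (0.303 to 0.580). The remaining sites under 0.5 were those in an intron of Hpse2 (annotated to Hps1, 0.442), before Marcks (0.458), before Angpt1, a ligand of the endothelial receptor Tie2 (0.477), in an intron of Sh3rf3 (0.482) and in an intron of Tmem218 (0.484). The last was the strongest of these, with 10.99 FPKM in the HA-RevErba 4 °C pool and 22.7 FPKM in the HA-RevErba 29 °C pool, against 0.560 and 1.41 FPKM in the WT pools.

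The members near genes of hormone and metabolite receptors of fat cells were 6 windows of 4 genes: Ghr, Hcar2, Nr3c1 and Thrb. The list held 22 genes with a 4 °C site, 10 of them with a shared site, and the median ratio over its 17 shared sites was 1.62. Over all genes, 275 of 1305 genes with a shared site (21.1%) had a member. Thrb, the thyroid hormone receptor β, had an intronic window 18.0 kb after its start with 4.71 FPKM in the HA-RevErba 4 °C pool and 8.07 FPKM in the HA-RevErba 29 °C pool, and 0 and 1 reads in the WT pools (3 reads, the floor used here, are 0.553 FPKM in the WT 4 °C pool and 0.598 FPKM in the WT 29 °C pool). Its ratio was 0.584 (0.416 to 0.813), with the whole interval below 1. The 11 Thrb sites listed at 4 °C only had ratios of 2.44 to 5.76, and the 1 listed at 29 °C only had 0.503. Nr3c1, the glucocorticoid receptor, was the annotated gene of 2 windows that lie in introns of Arhgap26, 168 and 243 kb after the Nr3c1 start, with ratios of 1.05 (0.728 to 1.51) and 1.198 (0.921 to 1.56). The 8 Nr3c1 sites listed at 4 °C only had ratios of 1.94 to 7.19, and its other shared site had 2.32.

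Among genes of lipid synthesis, members lay near Dgat1, Gpam and Fads2. Dgat1 and Gpam were 2 of 6 triglyceride genes with a shared site. Dgat1 makes triglyceride in the last step of its synthesis, and its window 3.05 kb before the start had 8.48 FPKM at 4 °C and 7.66 FPKM at 29 °C in the HA-RevErba pools, against 1.3 and 1.41 FPKM in the WT pools (ratio 1.11, 0.831 to 1.48). Gpam, which catalyses the first step of the same pathway, was the nearest gene of 2 distant windows, 261 and 279 kb after its start, with ratios of 0.585 (0.386 to 0.873) and 0.690 (0.444 to 1.06). The 2 Gpam sites nearer the start, both listed at 4 °C only, had higher ratios: 4.57 at -3.76 kb and 3.32 at -13.6 kb. Of 4 fatty acid synthesis genes with a shared site only Fads2, the Δ6 desaturase, had a member, an intronic window with 4.64 FPKM at 4 °C and 5.60 FPKM at 29 °C (0.83, 0.574 to 1.19). Vdac3, a channel of the outer mitochondrial membrane, was the only one of 3 genes with a shared site in the list of fatty acid oxidation and mitochondria that had a member. The window lies in an intron of the neighbouring phosphate transporter gene Slc20a2, with 5.50 FPKM at 4 °C and 10.9 FPKM at 29 °C (0.502, 0.370 to 0.675). The lists of lipid uptake genes (3 genes with a shared site) and of glucose use genes (5 genes) held no member. A site of the glucose use gene Insr had a ratio of 1.66 in the 4 °C window and 1.21 in that of the 29 °C list.

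The core clock genes had 12 shared sites at 5 genes and none was a member of the 285 by its annotated gene, their ratios lying between 1.36 and 2.81. This depends on the window: a site of Nfil3 had 1.57 in the 4 °C window and 1.17 in that of the 29 °C list. Yet a member lay in the first intron of Rora, the gene of the activator RORα, which the annotation gives to the non-coding Gm15511 (chr9:69187109-69187309). It had 32.0 FPKM in the HA-RevErba 4 °C pool and 24.7 FPKM in the HA-RevErba 29 °C pool, against 1.85 and 1.60 FPKM in the WT pools, and its ratio of 1.297 (1.11 to 1.51) is next to the limit.

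Among regulators, Klf4 and Rxra of 4 adipogenic transcription factor genes with a shared site had a member. In a list made here of REV-ERB corepressors, partners and other regulators, Zbtb16 was the only 1 of 5. Its place in that list does not show that PLZF is a partner of REV-ERB. The Klf4 window lay 498 kb before the gene (11.7 and 11.1 FPKM at 4 °C and 29 °C, 1.05, 0.828 to 1.34). Bcl6, a transcriptional repressor, was the only growth gene of 4 with a shared site to have a member, 155 kb before it (12.7 and 11.6 FPKM, 1.09, 0.869 to 1.38). Wif1 was the only 1 of 8 Wnt and Notch genes, Lep 1 of 3 adipokine genes, and Col4a2 and Col5a1 were 2 of 9 matrix genes. The member annotated to Col4a2 lies in an intron of Col4a1, which shares its promoter region with Col4a2 (32.4 FPKM at 4 °C and 26.2 FPKM at 29 °C, 1.24, 1.07 to 1.44). By host gene, an intron of the integrin gene Itgb5 (annotated to Umps, ratio 1.03) also held a member. Of marker lists of other cell types, those of endothelium (4 genes with a shared site), nerve and Schwann cells (2) and muscle (0) held no member, and that of immune cells (2) held Il12b. Over all 18 lists, 18 of 82 genes with a shared site had a member, a share near that of all genes. ChIP-seq peaks of whole tissue do not show which cells a site was bound in.

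Many genes with a member also had sites with a higher ratio. The 275 genes had 623 other sites in the 4 °C list, with a median ratio of 2.71, and the genes of the other shared sites had 2467, with a median of 3.11. These medians are high for a reason of construction as well, since a site listed at 4 °C only has a low 29 °C value. Of the 275 genes, 93 had no 4 °C site other than members, 161 also had a site listed at 4 °C only and 85 also had another shared site with a ratio of 1.3 or more. Genes whose only site in the 4 °C list was a member included Fads2, Dgat1, Vdac3, Wif1, Hcar2 and Lep.

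At several genes, members lay among sites with higher ratios. At Zbtb16 the strong window with a ratio of 1.04 had a neighbour 0.751 kb away, listed at 4 °C only, with 18.8 FPKM at 4 °C and 9.47 FPKM at 29 °C (1.99, 1.59 to 2.51). Another window 90.7 kb after the start, shared, had a ratio of 2.36 (1.99 to 2.80), and the second Zbtb16 member, 13.5 kb after the start, one of 1.18 (0.876 to 1.59). The interval of the strong member lay apart from those of both neighbours, which the lists or the rule had placed outside the 285. At Gm29811 the 2 members with a ratio of 1.03 each flank a window listed at 4 °C only, 1.24 kb from the nearer, with 17.3 FPKM at 4 °C and 3.88 FPKM at 29 °C (4.45, 3.24 to 6.25). At Rxra, the retinoid X receptor α gene and partner of PPARγ, the member 79.1 kb before the start had 6.28 FPKM at 4 °C and 7.0 FPKM at 29 °C (0.897, 0.653 to 1.23). A shared window 1.07 kb away had 13.3 and 5.03 FPKM (2.65, 1.97 to 3.62).

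Ghr, Marcks and Ackr3 each had members with unlike ratios. The 2 Ghr members lay 4.47 kb apart, with ratios of 0.322 (0.235 to 0.435) and 1.25 (0.967 to 1.61), and a shared site at -37.2 kb had 2.20 (1.59 to 3.08). The 6 sites listed at 4 °C only at Ghr had ratios of 1.99 to 5.77, 2 of them at -0.312 and 1.45 kb from the start. Marcks, the gene of a membrane-bound substrate of protein kinase C, had members at -18.5 kb (0.458, 0.316 to 0.654) and -95.3 kb (1.15, 0.969 to 1.36). The far one was strong, with 24.1 FPKM at 4 °C and 21.0 FPKM at 29 °C in the HA-RevErba pools. The gene also had 3 sites listed at 29 °C only, with ratios of 0.636 to 0.792. Ackr3, a scavenger receptor of the chemokine CXCL12, had members at 45.2 kb (0.514, 0.378 to 0.694) and 130 kb (1.296, 0.928 to 1.82), against 2.40 to 3.43 at its 4 other sites. Dapk1 had 2 members 3.81 kb apart with like ratios of 0.912 and 0.836. The non-coding gene 4933416E03Rik had 3 members, 252 and 201 kb apart, with ratios of 0.987, 0.603 and 0.942, and 5 sites listed at 29 °C only.

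**Figure D3:**
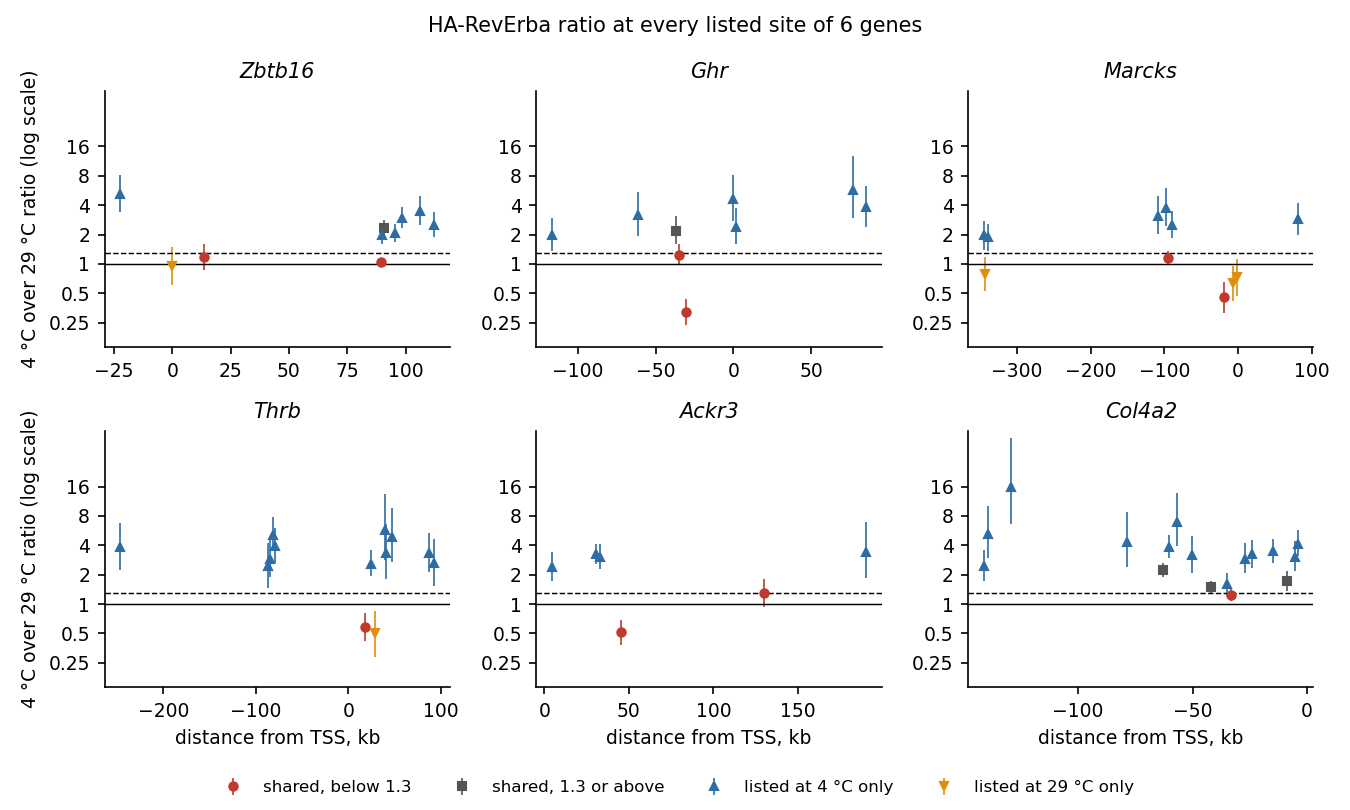
Ratio of HA-RevErba 4 °C over 29 °C read density (log axis) at every listed site of 6 genes against the distance from the start of the gene in kb, with 95% counting intervals. At Ghr the ratio is 0.322 at -30.7 kb, 1.25 at -35.2 kb and 2.20 at -37.2 kb.

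Over all 285 sites, 63 (22.1%) had another site of the 4 °C list within 5 kb, and the nearest such site had the higher ratio in 62 of them. In 39 the neighbour was higher with intervals that did not overlap. The neighbour was a site listed at 4 °C only in 43 cases (32 with intervals apart), another shared site in 17 (6) and a member in 3 (1, at Ghr). The rule fixes the outcome for the other shared sites, which all have the higher ratio, and the lists favour it for sites listed at 4 °C only. Of 312 such sites within 50 kb of the 285, none had a ratio below 1.3. So the count of 62 says little beyond how the sites were chosen. The 3 cases of the last kind are the pair at Ghr and the pair at Dapk1, which was counted once from each side. Of the other shared sites 458 (33.1%) had a neighbour within 5 kb, which had the higher ratio in 334 and an interval apart and higher in 114. Within 50 kb, 67.0% (61.2 to 72.4) of the 285 sites had another 4 °C site and 79.9% (77.7 to 82.0) of the other shared sites had. A site listed at 29 °C only lay within 50 kb of 10.9% of the 285 and of 9.03% of the other shared sites.

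The 285 sites lay somewhat farther from transcription starts than the other shared sites, a feature the rule did not use. Their median distance to the nearest start was 35.2 kb, against 28.1 kb. Of the 285, 18.6% (14.2 to 23.6, exact binomial interval) lay within 10 kb of a start, against 24.9% (22.7 to 27.3) of the other shared sites. More than 100 kb away were 21.4% (16.8 to 26.6) of the 285 and 16.6% (14.7 to 18.7) of the others. The intervals of both pairs of shares overlap. Promoters, as the authors' annotation classes them, held 2 of the 285 sites, those of Lep and Efr3a (0.702%, 0.0851 to 2.51), and 44 of the 1385 others (3.18%, 2.32 to 4.24), with intervals that overlap slightly. In the whole 4 °C list the promoter share was 3.82%. At 1 kb or less from a start were 3 of the 285 (1.05%) and 60 of the others (4.33%), with intervals of 0.218 to 3.04 and 3.32 to 5.54 that lie apart. Sites of 1 pair of pools are not replicates, so these shares were described and not tested.

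Introns held 146 of the 285 sites (51.2%) and 48.2% of the other shared sites, and intergenic stretches held 130 (45.6%) and 45.5%. The first intron held 16.1% of the 285 and 16.9% of the others, and non-coding genes were the nearest gene of 19.3% and 17.9%. The intervals of each of these pairs overlap. Of the 146 intronic sites, 96 lay in the gene that was also the nearest by start, so the annotated gene was another than the host gene for the rest. Chromosome 6 held 6 of the 285 sites (2.11%, 0.776 to 4.53) and 84 of the other shared sites (6.06%, 4.87 to 7.45), the chromosome being named after its value was seen. A miRNA gene was the nearest gene of 16 of the 285 sites (5.61%) and of 4.84% of the others. The only one of the 16 with an interval below 1 was annotated to Mir7689, in an intron of Sorcs2 (4.32 FPKM at 4 °C and 7.16 FPKM at 29 °C, 0.603, 0.422 to 0.855).

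**Figure D4:**
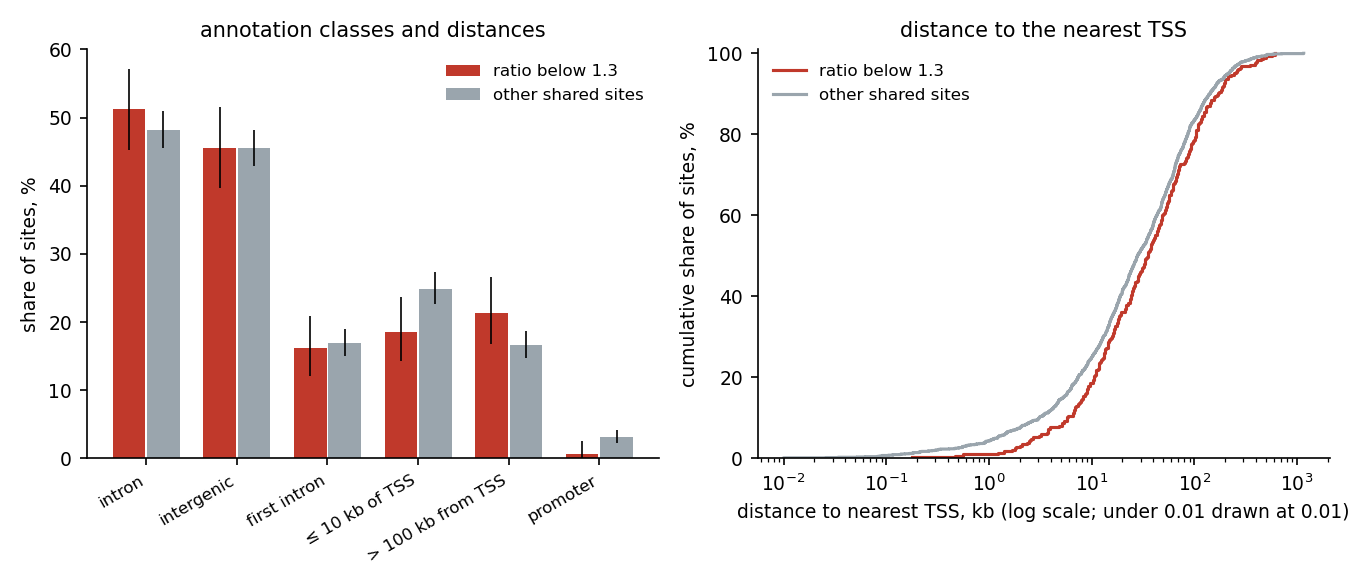
Left, share of sites in % by annotation class and distance to the nearest transcription start site (TSS) for the 285 sites (red) and the other shared sites (grey), with exact 95% binomial intervals. Right, cumulative share of sites in % against the distance in kb on a log axis, on which the 285 sites run to the right of the others, with medians of 35.2 and 28.1 kb.

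The WT pull-down was measured in the same windows. It did not enter the ratio, but it limited which windows each list held. Summed over the 285 windows it held 1495 reads at 4 °C and 1220 reads at 29 °C, a ratio per M reads of 1.13 (1.05 to 1.22). In the windows of the other shared sites the ratio was 1.49 (1.45 to 1.53), with 12544 and 7790 reads. Over the whole 4 °C list it was 1.02, and in the windows listed at 4 °C only 0.955. With the shared sites ordered by the HA-RevErba ratio in 5 groups of equal size, the WT ratio was 1.15, 1.25, 1.34, 1.58 and 1.91, low to high. So the background without a tagged protein moved in the same direction as the HA-RevErba signal at shared sites. The lists accept only windows with at least 3 FPKM above WT and about 4 times the WT value at the same temperature (lowest 3.99 and 3.97 times), so the WT values of listed windows are capped by their HA-RevErba values. With the 29 °C pool scaled so that WT reads in shared windows were equal, a factor of 1.44, 830 of the 1670 shared sites would lie below 1.3 in place of 285. The part of the cap, and of any difference between the chromatin of the groups, in the WT ratios was not tested. WT reads made up 10.1% of the HA-RevErba density at 4 °C and 8.69% at 29 °C in the 285 windows, against 10.5% and 14.5% in those of the other shared sites. No read of the WT 4 °C pool fell in 10 of the 285 windows, and none of the WT 29 °C pool in 14.

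**Figure D5:**
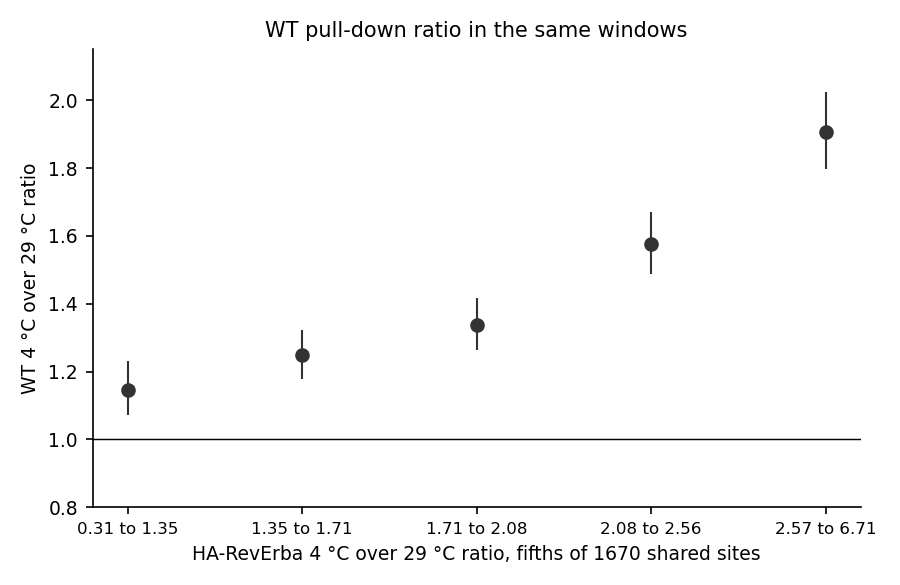
Ratio of WT 4 °C over WT 29 °C reads per M reads of the pool, summed over the windows of 1670 shared sites in 5 groups of equal size by the HA-RevErba ratio, whose range is given under each point, with 95% counting intervals. The ratio is 1.15 in the lowest group and 1.91 in the highest.

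Nearly all of the 285 sites stayed below the limit in the windows of the other list. In the windows of the 29 °C list, whose centres lay a median of 14 bp away in both sets, 283 of the 285 kept a ratio below 1.3, the exceptions being Triqk (1.301) and Twsg1 (1.308). Another 59 shared sites fell below 1.3 there, which gave 342 in all (20.5%). The 285 sites had a median ratio of 0.954 in these windows and the other shared sites one of 1.91. The ratio of a few members moved much: that of Gm13884, whose windows overlap by 23 bp, was 0.765 in the 4 °C window and 0.413 in the 29 °C window, and that of Kank1 0.7995 and 0.479. Ppa1 (1.002 and 0.694), Adam12 (1.12 and 0.797) and Gm9833 (1.26 and 0.916) had centres 62 to 89 bp apart and also lay lower in the 29 °C window. Each list was made on the pooled libraries of its own temperature, and whether this shifted the ratios between the 2 windows was not tested.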

How the data were processed

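Brown adipose tissue ChIP-seq gave 12 libraries, grouped by the genotype and temperature in their titles. Nothing in the labels ties a library to 1 animal, so the p-value on depth covers only the spread between libraries. Bowtie2 2.1.0, HOMER 4.10 and mm9 appear in the submitters' processing notes with no role given. The deposited aligner logs hold counts of reads per library. The deposited peak lists, 1 per temperature, were made on pooled libraries per the file headers, and give FPKM of 4 pools in 200 bp windows, with 0.01 added to each by the authors. The deposited peak score is 2 times the FPKM within rounding. Peak-calling settings, and whether starts count from 0 or 1, are not stated in those sources, so mm9 coordinates are printed as deposited.

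Every FPKM, less 0.01, was a whole multiple of 1 read (100% of values within 0.01 FPKM), which gave reads and pool sizes. Ratios carry exact conditional intervals at the 95% level from these reads, and shares exact Clopper-Pearson intervals. Without molecular identifiers, reads are not independent molecules, and both intervals cover counting error only. With 1 pool per group no p-value was made for binding. Python 3.11.15, pandas 2.3.3, numpy 2.4.6, scipy 1.17.1 and matplotlib 3.10.9 were used. The code for read counts and for the intervals of ratios was tested on simulated data, and the overlap code was not.

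Genes are those of the authors' annotation, by gene ID, and host genes of introns come from its transcript IDs. The gene table at hand (GRCm38.p6) served for names only, and all IDs of the 285 sites matched. Promoter sequences are RefSeq's, GRCm38.p6. No mm9 genome was used here, so no window sequence was read directly. The window parts shown were placed on RefSeq promoters by their distance to the start. Named sites are the 12 with the highest 4 °C score, the 12 with the lowest ratio, the 12 with the highest 29 °C FPKM, the 3 on each side of the limit, members of the 18 gene lists, genes with several members, members with their centre in -250 to +50 bp of a start and the 5 whose ratio moved most between windows. Sites named beyond this rule (Efr3a, Triqk, Umps, Mir7689, Nfil3, Insr, the promoters of Aifm2, Fam124b, Leo1 and Tmem182) were chosen after their values were seen. The members, gene lists and tests were chosen with earlier results of these data known. Alternatives changed the limit, overlap, window, scaling, background and peak strength. Some sites that the rule names are not reported here.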

Additional observations from a re-analysis of the deposited data

How the results depend on the processing

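The number of shared sites below the limit was 285, and became 465 with a limit of 1.5, 125 when the upper bound of the interval had to be below 1.3, and 159 when both windows had to be at least 5 FPKM above WT. It was 830 after the 29 °C pool was scaled so that WT reads in shared windows were equal (a factor of 1.44), and 307 with the factor of 1.02 from all windows of the 4 °C list. So the number depends on the scaling between pools. The cause was not tested. A limit of 1.2 gave 226, an overlap of 100 bp 284, the 29 °C window 342, and subtraction of WT 285, of which 258 were among the 285. The share in the promoter class stayed between 0.702% and 0.86%, and the share within 1 kb of a start was 1.05%. The WT ratio stayed between 1.13 and 1.21. The median ratio of other sites of the genes was 2.71, and that of other 4 °C sites within 50 kb was 2.61. The difference in library depth ranged from -0.703 to 3.07 M with 1 library left out, and was negative without HA-RevErba 4 °C replicate 2 (-0.703 M), HA-RevErba 29 °C replicate 1 (-0.257 M) or replicate 3 (-0.0957 M). No paired analysis was possible because the binding values are of pools, and the replicate numbers of HA-RevErba libraries were given in accession order. Ratios of windows under about 5 FPKM carry intervals as wide as that of Lep (0.587 to 1.23), which limits what can be said of single weak sites.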
